A study of Homo sapiens with 6 samples.

Results

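Plasminogen activation and pericellular proteolysis were described through 7 genes in HT29 cells, chosen by gene symbol out of 26255 genes listed in each library. They are the plasminogen activator genes PLAU (urokinase) and PLAT (tissue-type activator), the urokinase receptor gene PLAUR, the serpin genes SERPINE2 and SERPINB5, and the metalloproteinase genes MMP7 and MMP14. All 7 were listed in every library, and 6 of them passed the filter on low values (3 or more of the 6 libraries at 1 FPKM or above), as did 12035 genes in all. HT29 is an established human cell line derived from an adenocarcinoma of the colon. Cells received YM155, a small molecule known as an inhibitor of survivin expression, or DMSO, its solvent, for 24 h, with 3 libraries of messenger RNA in each group and no other difference between the groups in the labels. The titles spell the compound YM115 and the treatment field YM155. The labels give no dose and do not say whether the triplicates were separate cultures, so p-values measure only the spread between these libraries, which may be technical.

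Urokinase is secreted as a proenzyme, binds its receptor on the cell surface and cleaves plasminogen to plasmin, a broad protease that degrades fibrin and matrix proteins and can activate some metalloproteinases. Serpins trap such proteases in inactive complexes, and MMP7 and MMP14 cut matrix and cell-surface proteins, MMP14 as a membrane-anchored enzyme and MMP7 as a small secreted one. In the intestine MMP7 is a product of epithelial cells, including tumour cells, whereas MMP14 and much of the urokinase in colorectal tumours are commonly found in the stroma. A line such as HT29 holds no stroma. Of 8 fibroblast markers all were under 1 FPKM in every library, with summed levels of 0.313 to 0.401 FPKM with DMSO and 0.107 to 0.135 FPKM with YM155, and COL1A2 and COL3A1 were at or near 0. Of 10 markers of colorectal epithelium, 9 passed the filter and only CDX1 stayed under 1 FPKM. Their summed level was 4424 to 4630 FPKM with DMSO and 7940 to 8624 FPKM with YM155, most of it from the keratin genes KRT8 (1962 ± 56.7 and 3239 ± 172 FPKM) and KRT18 (1706 ± 68.2 and 3006 ± 188 FPKM; SD, n = 3). Among the 9 tested, 7 rose and 2 fell, against 43.6% and 41.0% of all tested genes. KRT20 rose 6.71-fold (limma, adjusted p = 4.6e-10). CDH17, which passed the filter through YM155 only, was 3.21-fold higher. The 2 that fell were CDX2, an intestinal transcription factor, by 3.81-fold (limma, adjusted p = 3.9e-06) and VIL1, encoding villin, by 1.73-fold (adjusted p = 1.1e-05). CDX2 passed the filter through DMSO only, so it could enter the test only by being lower with YM155. Of 7 leukocyte and endothelial markers only CD68, a lysosomal membrane protein that is not limited to macrophages, passed, with 4.85 ± 0.921 FPKM under DMSO and 82.9 ± 4.51 FPKM under YM155 (SD, n = 3), while PTPRC and CD3E were at or near 0.

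The files hold FPKM, a level per transcript length and per library size, and no read totals. Depth was estimated from the steps between low values as 24.6 to 27.1 M effective reads with DMSO but only 15.4 to 18.2 M with YM155, and scarce transcripts such as PLAT were read less precisely there. FPKM values summed to 538478 to 563296 with DMSO and 678699 to 696067 with YM155. BIRC5, the survivin gene, was 3.42-fold lower with YM155 (limma, adjusted p = 6.8e-08).

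The 250 bases before the annotated start of 5 of the genes are shown for 4 of the genes that were higher with the deposited values, MMP7 among them with a direction that depended on scaling, and for MMP14, which fell. AP-1 factors, dimers of FOS and JUN family proteins, are textbook regulators of several of these genes, so the AP-1 letters TGANTCA, which read alike on both strands, are in capitals. The sequences are from RefSeq (GRCh38.p14), 5′ to 3′ on the strand of the gene, whereas the expression values rest on hg19. PLAU has 2 annotated starts in that table, and the one that lies further downstream is shown.
PLAUR, chr19:43670170-43670419, minus strand: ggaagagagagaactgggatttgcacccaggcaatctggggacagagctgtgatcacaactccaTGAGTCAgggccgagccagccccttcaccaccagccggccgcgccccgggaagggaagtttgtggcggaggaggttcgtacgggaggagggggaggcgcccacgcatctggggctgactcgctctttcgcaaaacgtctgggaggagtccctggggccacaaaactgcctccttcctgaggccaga
MMP7, chr11:102530748-102530997, minus strand: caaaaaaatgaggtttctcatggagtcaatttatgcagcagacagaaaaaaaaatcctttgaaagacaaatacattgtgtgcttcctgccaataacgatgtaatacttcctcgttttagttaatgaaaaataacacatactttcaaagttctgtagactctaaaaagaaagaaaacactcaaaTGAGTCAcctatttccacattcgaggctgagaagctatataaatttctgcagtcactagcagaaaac
SERPINB5, chr18:63476708-63476957, plus strand: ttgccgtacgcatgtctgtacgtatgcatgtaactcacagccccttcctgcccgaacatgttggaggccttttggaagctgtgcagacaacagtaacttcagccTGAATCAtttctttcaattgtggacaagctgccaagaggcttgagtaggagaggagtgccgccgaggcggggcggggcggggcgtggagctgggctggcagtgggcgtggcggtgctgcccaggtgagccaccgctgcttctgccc
PLAU, chr10:73910882-73911131, plus strand: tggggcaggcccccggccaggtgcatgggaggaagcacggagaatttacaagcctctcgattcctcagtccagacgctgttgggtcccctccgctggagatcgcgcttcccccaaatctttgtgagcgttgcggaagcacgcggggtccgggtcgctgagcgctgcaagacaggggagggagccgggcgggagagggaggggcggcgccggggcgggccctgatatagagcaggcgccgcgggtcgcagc
MMP14, chr14:22836335-22836584, plus strand: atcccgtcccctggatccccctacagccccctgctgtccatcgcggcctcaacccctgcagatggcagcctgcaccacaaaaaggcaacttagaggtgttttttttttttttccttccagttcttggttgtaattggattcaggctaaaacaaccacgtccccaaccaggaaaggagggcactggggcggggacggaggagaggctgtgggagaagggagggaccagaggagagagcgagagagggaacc

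The letters TGANTCA were found in the windows of PLAUR, MMP7 and SERPINB5, that is in 3 of the 6 genes searched and 3 of their 8 windows. They were found in 6.57% of 35116 windows of the same length. The match begins 186 bases before the start in PLAUR, 67 bases before it in MMP7 and 146 bases before it in SERPINB5, where the matched letters are TGAATCA. It was not found in either window of PLAU or of SERPINE2, nor in MMP14, and letters beyond these 250 bases were not searched. The letters TATAAA were found in MMP7 alone among these genes, 30 bases before its start, and in 10.7% of all windows. The letters GGGCGG were found in PLAU, SERPINE2, SERPINB5 and MMP14 and in 42.6% of all windows. The letters TGATGNAA, part of elements bound by ATF4 and CHOP, were in none of the 6 genes and in 3.14% of all windows. The letters TGACNNNGC of the antioxidant response element, which can overlap TGANTCA, were in the upstream window of PLAU and the downstream window of SERPINE2 and in 10.9% of all windows. Each motif was searched on both strands. A match describes letters only and was not tested for binding. PLAT, on chromosome 8, was left out of the search by choice, so nothing is said of its letters. The 35116 windows were not restricted by chromosome.

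The groups were compared to see what 24 h of treatment did to these transcripts. PLAUR and PLAU rose about 14-fold on the FPKM scale, the 2 serpin genes rose 5.16-fold and 2.92-fold, and MMP14 fell 2.97-fold. MMP7, the most abundant of them with DMSO, was 1.22-fold higher, a direction that depended on scaling. PLAT was barely detected in either group. At an adjusted p under 0.05 (limma on log2(FPKM + 1), Benjamini-Hochberg over all 12035 tested genes), 5 of the 6 tested genes were higher, against 43.6% of all tested genes, and 1 was lower, against 41.0%. With 84.7% of all tested genes past that threshold, a call alone does not set these genes apart. A log2 fold change of at least 1 together with a call was found for 4 of the 6, against 15.9% of all tested genes, and one of at most -1 for 1 of the 6, against 11.8%. The libraries of the groups did not overlap for any of the 6, which was so for 85.9% of all tested genes (44.4% with YM155 higher and 41.5% with YM155 lower). PLAU, which is among the genes counted as higher, passed the filter through YM155 only. The genes were also chosen with earlier results of these data known, so these counts are a description.

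**Figure D1:**
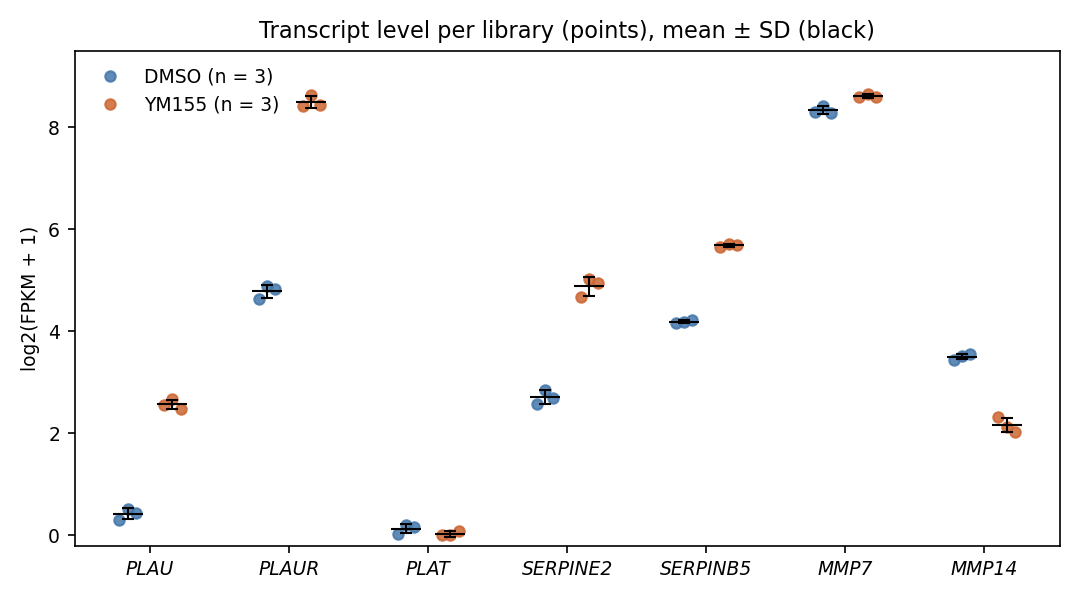
Transcript level of the 7 genes as log2(FPKM + 1), with 1 point per library, DMSO in blue and YM155 in orange, and black bars for the mean ± SD of 3 libraries. The groups lie apart for the 6 tested genes, whereas PLAT stays under 0.148 FPKM in every library.

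The urokinase receptor gene PLAUR encodes a protein held on the membrane by a lipid anchor, which concentrates urokinase at the cell surface. Its level was 23.8, 28.6 and 27.5 FPKM in DMSO replicates 1 to 3 and 340, 395 and 347 FPKM in YM155 replicates 1 to 3. Every YM155 library lay far above every DMSO library, and YM155 replicate 2 was the highest. This was a 13.5-fold rise of the mean ± SD (n = 3) from 26.6 ± 2.48 to 361 ± 30.02 FPKM, with a log2 fold change of 3.71 ± 0.08 (SE, adjusted p = 8.4e-10). By size of the log2 fold change PLAUR stood 41st from the top of 12035 tested genes, and by level it moved from rank 2691 with DMSO to rank 233 with YM155.

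PLAU, the gene of urokinase itself, was scarce with DMSO. DMSO replicates 1 to 3 listed it at 0.236, 0.437 and 0.357 FPKM, and YM155 replicates 1 to 3 at 4.89, 5.35 and 4.58 FPKM. The groups did not overlap. PLAU passed the filter through the YM155 libraries only, so it could enter the test only by being higher there, and its call is not support for a rise of the group of genes. The mean went from 0.343 ± 0.101 to 4.94 ± 0.385 FPKM (SD, n = 3), a 14.4-fold difference with a log2 fold change of 2.15 ± 0.09 (SE, adjusted p = 3.7e-08). The log2 scale with a pseudocount of 1 understates a change from so low a level: with a pseudocount of 0.1 the log2 fold change was 3.53. C10orf55, which overlaps PLAU on the other strand, was listed at 0.0566 FPKM or less in every library.

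PLAT, the gene of the tissue-type activator, which is best known for clot lysis in blood vessels, was listed at 0.0259, 0.148 and 0.115 FPKM with DMSO, at 0 in YM155 replicates 1 and 2 and at 0.0679 FPKM in YM155 replicate 3. It did not pass the filter and the groups overlapped. Without a filter its log2 fold change was -0.0994 (SE 0.0492, adjusted p = 0.13 by limma), so a difference was not detectable at this depth. PLG, the gene of plasminogen, which the liver supplies to plasma, was also at or near 0, with no library above 0.0367 FPKM.

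SERPINE2 encodes protease nexin-1, a serpin that inhibits thrombin, urokinase and plasmin at the cell surface. The DMSO libraries held 4.98, 6.22 and 5.47 FPKM and the YM155 libraries 24.5, 31.7 and 29.8 FPKM. The groups did not overlap, and the spread was widest among the YM155 libraries, of which replicate 1 was the lowest. The mean ± SD (n = 3) rose 5.16-fold, from 5.56 ± 0.627 to 28.7 ± 3.76 FPKM, with a log2 fold change of 2.18 ± 0.10 (SE, adjusted p = 9.1e-08).

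SERPINB5 encodes maspin, a clade B serpin of epithelial cells that does not inhibit proteases in the classical way. Its level was 16.96, 17.3 and 17.6 FPKM with DMSO and 49.4, 51.2 and 50.8 FPKM with YM155. Replicates lay close together in both groups and the groups were far apart. The rise was 2.92-fold, from a mean ± SD (n = 3) of 17.3 ± 0.305 to one of 50.5 ± 0.975 FPKM, with a log2 fold change of 1.49 ± 0.04 (SE, adjusted p = 4.9e-09).

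MMP7 encodes matrilysin. DMSO replicates 1 to 3 held 312, 342 and 309.9 FPKM of it, and YM155 replicates 1 to 3 held 388, 404 and 383 FPKM. All 3 YM155 libraries lay above all 3 DMSO libraries, by a margin that was small next to those of the genes above. The mean ± SD (n = 3) went from 321 ± 17.8 to 392 ± 10.7 FPKM, with a log2 fold change of 0.29 ± 0.05 (SE, adjusted p = 4.8e-04 by limma). The direction turned with scaling between libraries: the log2 fold change was -0.0629 after upper-quartile scaling (adjusted p = 0.26), -0.0385 after rescaling to a common sum (adjusted p = 0.4) and -0.22 after quantile normalization (adjusted p = 6.8e-04). The median of all tested genes shifted by -0.31, -0.29 and -0.11 under these scalings, and relative to that median MMP7 was at 0.22, 0.22 and -0.14, against 0.26 with the deposited values.

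MMP14, the membrane-anchored MT1-MMP, was the tested gene of the 7 that fell. Its level was 9.89, 10.5 and 10.7 FPKM with DMSO and 3.99, 3.39 and 3.10 FPKM with YM155. The lowest DMSO library was above the highest YM155 library. It fell 2.97-fold, from a mean ± SD (n = 3) of 10.4 ± 0.433 to one of 3.49 ± 0.452 FPKM, with a log2 fold change of -1.34 ± 0.08 (SE, adjusted p = 4.6e-07), and stayed lower under each of the 4 scalings, between -1.34 and -1.64.

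**Figure D2:**
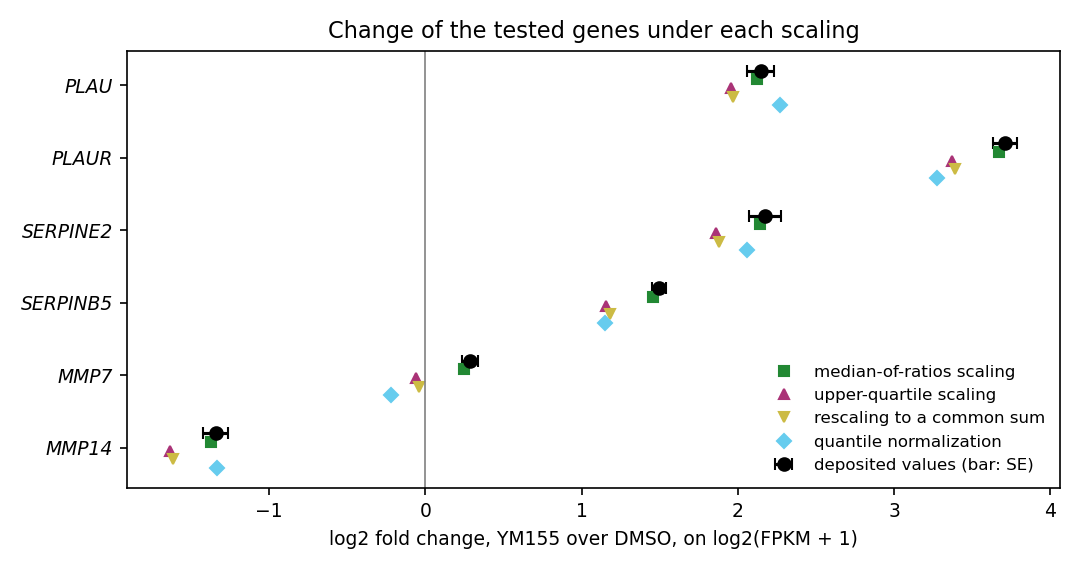
Log2 fold change of YM155 over DMSO on the log2(FPKM + 1) scale for the 6 tested genes, with the deposited values in black (bar: SE from limma) and 4 scalings between libraries in colour. MMP7 crosses 0 with 3 of the scalings, whereas the other genes keep their side of it.

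Since FPKM is a level per length, levels can be set in order within a library. With DMSO the order was MMP7, PLAUR, SERPINB5, MMP14, SERPINE2, PLAU and PLAT, and the libraries of neighbours in it did not overlap. With YM155 it was MMP7, PLAUR, SERPINB5, SERPINE2, PLAU, MMP14 and PLAT. The ranges of MMP7 (383 to 404 FPKM) and PLAUR (340 to 395 FPKM) overlapped there across libraries, although MMP7 was the higher within each of the 3, and no other neighbours overlapped.

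The ratio of a pair of transcripts within a library does not depend on scaling between libraries. The test as planned, on 8 differences of log2(FPKM + 1), is bound by 3 libraries against 3, for which an exact two-sided permutation test cannot go below 0.1. It gave that p for 7 of the 8 ratios (0.11 adjusted over the 8 by Benjamini-Hochberg) and 0.9 for PLAU to SERPINE2. Because the pseudocount weighs on PLAU, plain FPKM ratios were added after the data were seen, for the 7 ratios without PLAT. PLAUR exceeded PLAU 101-fold, 65.5-fold and 77.0-fold in the DMSO libraries and 69.5-fold, 73.9-fold and 75.8-fold in the YM155 libraries. These ranges overlapped (exact permutation p = 0.7, difference of -0.13 on the log2 scale), although the planned scale had put the difference at 1.57. A difference this small was not detectable with 3 libraries a group, which does not show that receptor and ligand rose alike.

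The ratios of urokinase and its receptor to the serpins were higher with YM155. PLAUR to SERPINE2 was 4.79, 4.59 and 5.02 with DMSO and 13.9, 12.4 and 11.6 with YM155. PLAU to SERPINE2 was 0.0474, 0.0702 and 0.0653 with DMSO and 0.200, 0.168 and 0.154 with YM155, 2.88-fold higher, whereas the planned scale gave a difference of -0.0299. PLAU to SERPINB5 was 5.07-fold higher. In each of these 3 ratios the groups did not overlap (exact permutation p = 0.1 each, 0.12 adjusted over 7). The share of other gene pairs without overlap was not counted. Taken singly, 85.9% of all tested genes did not overlap, so a lack of overlap alone does not set these pairs apart. PLAU was scarcer than either serpin transcript in both groups.

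The metalloproteinases moved apart. MMP7 to MMP14 was 31.6, 32.6 and 28.9 with DMSO and 97.2, 119 and 124 with YM155, 3.64-fold higher. MMP14 to TIMP2, the inhibitor that also helps MMP14 to activate pro-MMP2, was 4.21, 4.10 and 3.96 with DMSO and 0.553, 0.415 and 0.441 with YM155, so the more abundant transcript of this pair changed from MMP14 to TIMP2. MMP7 to TIMP1 was 3.30, 3.52 and 3.44 with DMSO and 1.32, 1.31 and 1.24 with YM155, 2.65-fold lower. None of these 3 ratios overlapped between the groups (exact permutation p = 0.1 each, 0.12 adjusted over 7). As above, a lack of overlap was not compared with that of other gene pairs and does not set these apart.

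**Figure D3:**
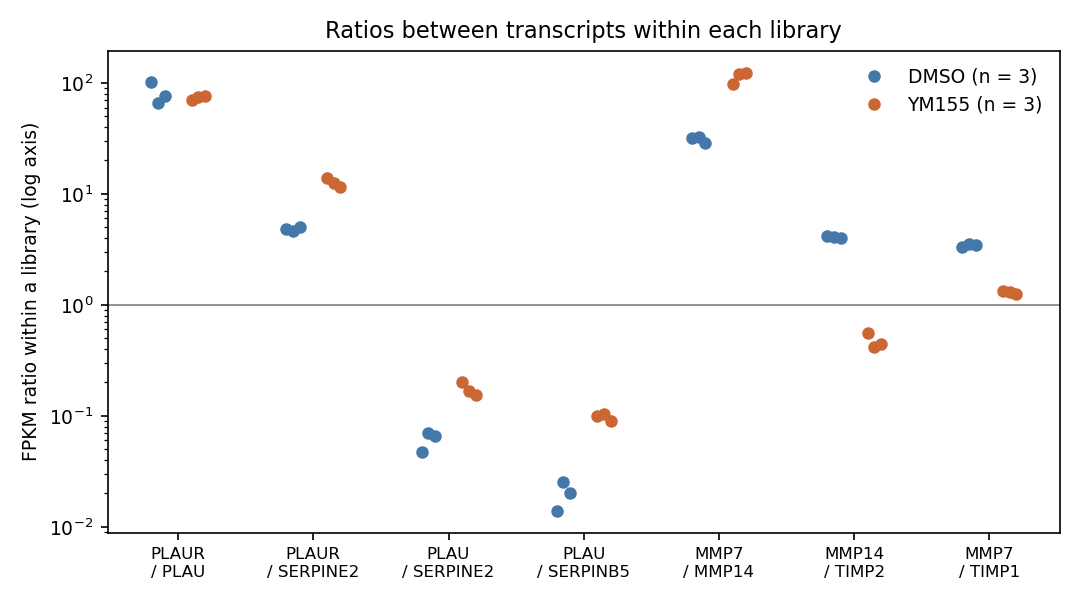
Ratio of FPKM between pairs of transcripts within each library, on a log axis, with 1 point per library (DMSO blue, YM155 orange) and a grey line at a ratio of 1. PLAUR to PLAU overlaps between the groups, the other 6 ratios do not, and MMP14 to TIMP2 crosses 1. The share of other gene pairs without overlap was not counted.

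The wider pathway was followed through 12 lists of 167 other genes, of which 104 passed the filter. Of these 68 rose (65.4%, against 43.6% of all tested genes) and 27 fell (26.0%, against 41.0%), with a median log2 fold change of 0.77 against 0.0245 for all tested genes. A call with a log2 fold change of at least 1 was found for 45 (43.3%, against 15.9%). With upper-quartile scaling 62 rose and 36 fell (3767 and 6584 of all 12035 tested genes), with a common sum 62 and 36 (3825 and 6433), and with quantile normalization 62 and 32 (4643 and 5487). Besides ADAM10 and SERPINB1, the clearance receptor gene LRP1 and the tissue factor gene F3 turned direction, from 0.28 to -0.0452 and from 0.30 to -0.0189 with upper-quartile scaling. The lists were written with earlier results of these data known. Of their genes, 4 passed the filter through YM155 only, and MMP11, MMP19, MMP24 and ADAMTS13 passed it through DMSO only. Such genes could enter the test in a single direction, so these shares are a description. The counts of each list below stand beside the same 43.6% higher and 41.0% lower of all tested genes.

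Among inhibitors of plasminogen activators and plasmin, the 8 genes other than SERPINE2 had 5 tested, of which 3 rose and 2 fell, with a median of 1.23. SERPINB8, an intracellular serpin that inhibits furin, rose from 2.76 ± 0.434 to 22.6 ± 1.01 FPKM, and SERPINB6 fell 1.94-fold, from 44.6 ± 1.54 to 23.03 ± 1.36 FPKM (SD, n = 3). SERPINB2 and A2M were at or near 0 in every library. Of 12 clade B serpins other than SERPINB5, 3 were tested, 2 rose and 1 fell. SERPINB6 and SERPINB8 are among these 3 and were counted among the inhibitors above as well. The third of them, SERPINB1, an inhibitor of neutrophil proteases, was 1.28-fold higher (log2 fold change 0.36), which turned to 0.0116 after upper-quartile scaling and to -0.0851 after quantile normalization.

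Of 9 genes of plasminogen and its surface receptors 8 were tested, of which 4 rose and 2 fell, with a median of 0.39. ANXA2, encoding the annexin that binds plasminogen and the tissue-type activator together with S100A10, rose from 835 ± 44.1 to 2057 ± 38.04 FPKM. S100A10 itself did not pass (764 ± 33.2 and 766 ± 17.1 FPKM, adjusted p = 0.92), nor did ENO1, an enolase that also binds plasminogen (825 ± 41.3 and 857 ± 41.8 FPKM, adjusted p = 0.36). ACTB rose 3.09-fold and CKAP4 from 13.1 ± 0.543 to 27.5 ± 1.35 FPKM. The 2 that fell were HMGB1, by 1.66-fold, and the plasminogen receptor gene PLGRKT, by 2.13-fold, from 8.44 ± 0.640 to 3.96 ± 0.626 FPKM. S100A10 and PLGRKT were named after their values were seen.

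Of 26 partners, homologues and clearance receptors of the urokinase receptor 13 were tested, 10 rose and 2 fell, with a median of 0.85. CD59, a lipid-anchored complement inhibitor with the fold of the urokinase receptor, rose from 27.9 ± 0.461 to 177 ± 4.36 FPKM. EGFR, through which the urokinase receptor can signal, rose from 5.15 ± 0.348 to 33.6 ± 2.33 FPKM. ITGA3 rose 3.08-fold and IGF2R 2.19-fold, and ITGB6 did not pass (9.37 ± 0.498 and 10.3 ± 0.369 FPKM, adjusted p = 0.084). Vitronectin (VTN) and ITGA5 were at or near 0 in both groups.

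Of 21 other metalloproteinase genes 6 were tested, 2 rose and 3 fell, with a median of -0.51, and 13 were under 1 FPKM in every library, MMP2 and MMP9 among them. MMP1, interstitial collagenase, was listed at 0.316, 0.193 and 0.288 FPKM with DMSO and 8.89, 10.2 and 10.03 FPKM with YM155, and passed the filter through YM155 only, as did MMP10, stromelysin-2 (0.250 ± 0.0889 and 1.82 ± 0.224 FPKM). MMP11, MMP19 and MMP24 fell 6.36-fold, 6.30-fold and 4.32-fold from 1.80 ± 0.192, 4.93 ± 0.227 and 2.51 ± 0.281 FPKM. These 3 passed the filter through DMSO only, so they could enter the test only by being lower with YM155. MMP15, another membrane-type metalloproteinase, did not pass (11.1 ± 0.830 and 12.1 ± 0.934 FPKM, adjusted p = 0.2). All of these but MMP1 and MMP15 were named after their values were seen. Of 6 metalloproteinase inhibitors and inducers 3 were tested. TIMP1 rose from 93.9 ± 3.52 to 303 ± 8.35 FPKM and TIMP2 from 2.54 ± 0.182 to 7.47 ± 0.608 FPKM, BSG did not pass (161 ± 9.69 and 168 ± 6.79 FPKM, adjusted p = 0.37), and TIMP3 and RECK were at 0 throughout. Of 4 convertases that cut the propeptide of MMP14 or its relatives 3 rose: FURIN 1.95-fold, PCSK5 6.20-fold and PCSK7 1.73-fold. PCSK6 did not pass (5.49 ± 0.194 and 5.42 ± 0.228 FPKM, adjusted p = 0.84).

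**Figure D4:**
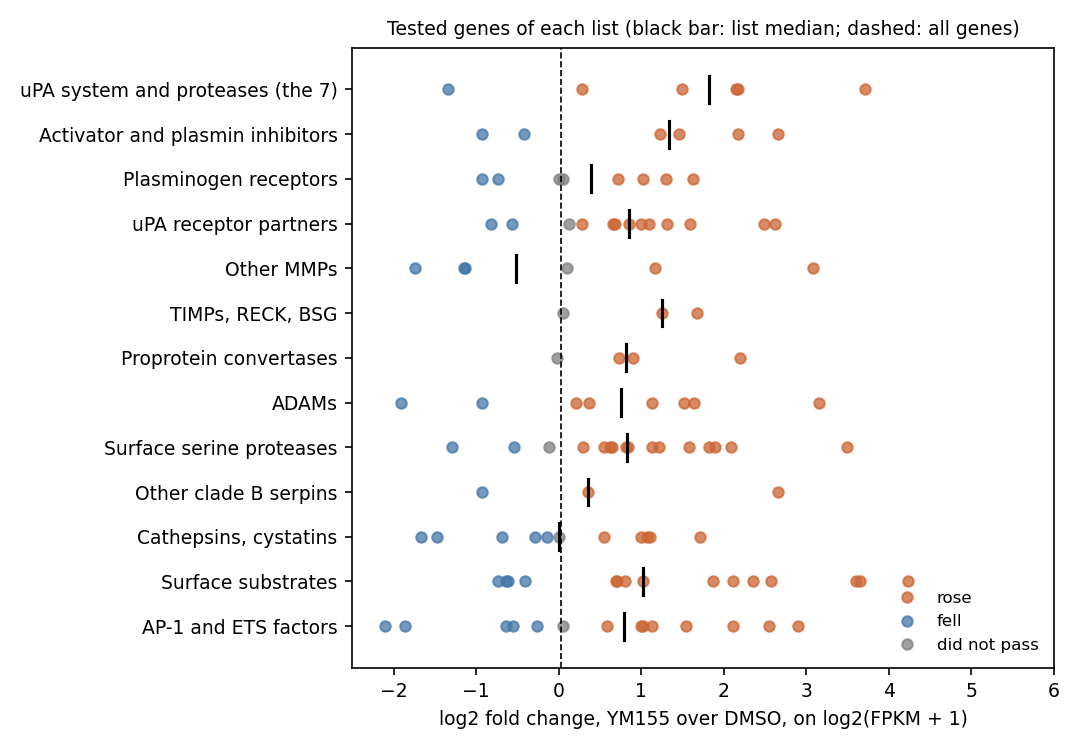
Log2 fold change of YM155 over DMSO for each tested gene, in 1 row per list (rose in orange, fell in blue, did not pass in grey), with a black bar at the list's median and a dashed line at the median of all tested genes, 0.0245. The other metalloproteinases are the only list with a median below the dashed line by more than 0.1. Their 2 genes that rose passed the filter through YM155 only and their 3 that fell through DMSO only. SERPINE2 appears in both upper rows. SERPINB6 and SERPINB8 appear among the activator and plasmin inhibitors and again among the other clade B serpins.

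Other surface proteases were described in the same way. Of 16 ADAM and ADAMTS genes 8 were tested, 6 rose and 2 fell. ADAM19 rose from 2.25 ± 0.177 to 27.98 ± 0.795 FPKM, and the sheddase gene ADAM17 rose 3.31-fold, ADAM9 2.22-fold and ADAM8 3.52-fold. The other two of the 6 depended on scaling: ADAM10 went from a log2 fold change of 0.21 to -0.12, -0.0987 and -0.0939 with upper-quartile, common-sum and quantile scaling, and ADAM15 from 0.37 to 0.0372, 0.0608 and 0.0272, none of them past the threshold. ADAMTS6 fell 6.11-fold, from 6.99 ± 0.326 FPKM, and was named, like ADAM10 and ADAM15, after its values were seen. Of 22 membrane serine proteases, kallikreins, Kunitz inhibitors and protease-activated receptors 16 were tested, 13 rose and 2 fell. PRSS3, a trypsinogen gene whose reads can be shared with its near-identical relatives and is therefore uncertain, was 11.5-fold higher, from 42.8 ± 0.421 to 494 ± 18.4 FPKM. KLK6 rose 4.36-fold, PRSS23 from 5.24 ± 0.312 to 20.96 ± 0.783 FPKM and TFPI, the inhibitor of the tissue factor pathway, 2.36-fold. KLK11 did not pass (36.9 ± 1.56 and 33.9 ± 1.88 FPKM, adjusted p = 0.074). Of 13 cathepsins and cystatins 11 were tested, with 5 higher and 5 lower and a median of 7.8e-04. CTSL rose 4.06-fold, CTSD 2.16-fold, CTSB 2.14-fold and the inhibitor gene CSTB 2.01-fold, and CTSA did not pass (57.1 ± 3.51 and 57.1 ± 0.318 FPKM, adjusted p = 0.99). CTSK fell 4.29-fold, CTSH 2.83-fold from 82.8 ± 5.97 FPKM and CTSC 1.61-fold, all 3 named after their values were seen.

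Of 19 surface and matrix substrates 15 were tested, 11 rose and 4 fell, with a median of 1.02. The laminin subunit genes LAMA3 and LAMB3, whose product MMP14 and plasmin can cut, rose 21.8-fold and 12.6-fold, and EPHA2, a receptor that MMP14 can cleave, rose 5.27-fold. Of 14 AP-1 and ETS factor genes 8 rose and 5 fell, against 43.6% and 41.0% of all tested genes, with a median of 0.79. FOSL1, encoding FRA-1, rose from 17.5 ± 0.391 to 137 ± 11.95 FPKM, ETS1 from 8.39 ± 0.224 to 54.1 ± 4.08 FPKM, ELF3 4.36-fold and FOSL2 3.15-fold. JUN did not pass (102 ± 6.91 and 106 ± 5.56 FPKM, adjusted p = 0.42). FOS, named after its values were seen, fell 4.32-fold, from 171 ± 21.4 to 39.6 ± 8.07 FPKM. Whether these factors act on the genes shown was not tested.

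The tested genes nearest to each of the 6 by Euclidean distance between log2(FPKM + 1) values centred on the DMSO mean, over 6 libraries that share both treatments, were the following. For PLAUR they were PITX1 (distance 0.19, from 6.85 ± 0.219 to 97.9 ± 6.55 FPKM) and MICALL1 (0.20, 3.89 ± 0.105 to 65.7 ± 3.64 FPKM). DUSP7 (0.0648) and CDC42EP1 (0.13) were nearest to PLAU, FAM160A1 (0.17) and GPRC5A (0.25) to SERPINE2, and TARS (0.0639) and IGF2BP2 (0.0660) to SERPINB5. KCTD2 (0.0510) and ELP5 (0.0614) were nearest to MMP7, and LINC00998 (0.0932) and UBXN11 (0.0938) to MMP14. The distance measures likeness of pattern across these libraries and nothing else.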

How the data were processed

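The authors deposited FPKM values (fragments per kilobase of transcript, relative to library size), 1 table for each library and 1 row for each gene symbol. The authors used, per the submitters' processing notes, Cuffdiff, Cufflinks 2.2.1, Bowtie2 2.3.5.1, TopHat2 2.1.1 and SAMtools 1.2, on build hg19. Settings, the annotation, how library size was taken and whether strand was used are not stated in the sources at hand. Per the labels' protocols, the library kit was stranded and for mRNA.

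Genes that reached 1 FPKM in 3 or more of the 6 libraries were compared as log2(FPKM + 1) with limma 3.58.1 in R 4.3.3 (eBayes with trend, two-sided, Benjamini-Hochberg over all tested genes, threshold 0.05). Folds are ratios of mean FPKM. Effective reads were estimated by finding the depth that put low values of single-transcript genes (GENCODE 29) nearest to whole reads, with an assumed fragment length of 200 bases. Between 63.1% and 69.6% of such values then came within 0.1 read of a whole count, so no count test was run. No pair of libraries held an identical value of 1 FPKM or more.

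The members and lists were chosen with earlier results of these data known. Named were all members, up to 4 genes of each list with the lowest p and at least 5 FPKM in the higher group, the most abundant that did not pass, all tested genes of lists of at most 8, and the 2 nearest genes of each member. Other genes were named after their values were seen, and some genes of the lists are not reported here by name. Alternatives were the pseudocount, the filter, 4 scalings, variance options, array weights, a replicate block, a threshold of 0.01 and leaving out each library.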

Additional observations from a re-analysis of the deposited data

How the results depend on the processing

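Of 113 values of the 6 tested genes under the alternatives, 110 kept their direction and their side of the threshold. The 3 that did not were those of MMP7, whose log2 fold change turned to -0.0629 with upper-quartile scaling, -0.0385 with a common sum and -0.22 with quantile normalization. With the last of these, 2 of the genes were lower. With a mean FPKM of at least 5, 8575 genes were tested, against 12035, and PLAU had no value. Genes lower over the whole table then numbered 2922, against 4940, and genes higher 4419, against 5251. The share of calls that were higher was 60.2% with this filter, against 51.5%. The split of calls over the whole table was 51.5% higher, against 36.4% with upper-quartile scaling and 37.3% with a common sum.

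Leaving out each library in turn left 5 of the genes higher and 1 lower, with 9852 to 10204 genes past the threshold. The PLAU to SERPINE2 ratio depended on the pseudocount, with a difference of -0.0299 at 1, 0.43 at 0.5, 1.19 at 0.1 and 1.52 at 0, and it was 0.0451 without YM155 replicate 3 (-0.13 to 0.0451 without each library). PLAUR to PLAU went from 1.57 to -0.13 at a pseudocount of 0. The causes were not tested.

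Replicate numbers did not pair the libraries. Deviations of same-numbered libraries correlated at -0.0710, -0.15 and -0.12, and no library correlated best with its own number. With the replicate block 10008 genes passed, against 10191.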
